A study of Mus musculus with 9 samples.

Results

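The genes described here are 37 genes of the cell cycle and mitosis, chosen by symbol from the count table of a kidney RNA-seq experiment that holds 21935 genes. All 37 were found, and all 37 were among the 14069 genes that passed the filter on low counts and were tested. They were placed in 4 groups by role, namely 4 regulators of G1 and of growth arrest, 10 genes of DNA replication and nucleotide supply, 13 genes of mitotic entry and exit, and 10 genes of the chromosome and spindle machinery. The experiment addressed what the loss of gasdermin D, the protein that forms the membrane pores of pyroptosis, does in pristane-induced lupus (PIL), and the kidney libraries are 9 in number, 3 in each of 3 groups of C57BL/6 mice that the labels give as female. The 3 Gsdmd-/- libraries, labelled GSDMD-/-, are from mice that lack the gene throughout the body. For these mice the paper gives pristane, whereas the treatment field of their labels reads none. The 3 PIL libraries are from wild-type mice given pristane, a hydrocarbon oil, once by intraperitoneal injection. The 3 control libraries are from wild-type mice whose treatment field reads none and for which the treatment protocol gives saline. The injected volume was 0.5 ml at 4 weeks of age, and the kidneys were taken 31 weeks later. No source used here says whether the libraries are from separate mice, so that the p-values measure the spread between these libraries.

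A cell that divides passes through G1, copies its DNA in S phase, and separates the copies in mitosis. D-type and E-type cyclins bring it through G1 and release the E2F factors, which switch on the genes of DNA replication. The genes of mitosis are switched on later by the MYB and FOXM1 complexes. This works through CCAAT boxes and cell cycle homology region (CHR) elements in the promoters of the mitotic genes. Most cells of the adult kidney are quiescent, and the RNA of mitotic genes is therefore used as a sign of dividing tubule cells or of dividing cells of the immune system and stroma. In RNA from whole kidney, more dividing cells and more of these RNAs per cell cannot be told apart.

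The mitotic genes differed widely between the libraries of 1 group in both PIL and control kidneys. PIL replicate 1 held the highest level of all 9 libraries in 28 of the 37 genes, and control replicate 3 in 6 more. All 37 genes had a lower fitted mean in Gsdmd-/- than in PIL kidneys, the median being -1.50 on the log2 scale, and 32 of 37 had a higher one in PIL than in control kidneys, the median being 0.46. None of the 37 passed an adjusted p of 0.05 in any of the 3 comparisons by edgeR's quasi-likelihood test. The 3 Gsdmd-/- libraries were low in mitotic genes, with a sum of 17.3 to 20.2 CPM over the genes of mitotic entry and exit. Control replicates 1 and 2 and PIL replicate 3 were near this level, at 17.7, 13.9 and 21.2 CPM. The median spread of the 37 genes among the Gsdmd-/- libraries was at the level of counting error, to which low counts bring it closer.

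Several checks bear on all values that follow. The libraries held 13311063 to 16299328 counts. Gsdmd itself stood at 1.61 to 2.06 CPM (counts scaled to library size) in Gsdmd-/- libraries, 6.56 to 20.1 CPM in PIL libraries and 4.40 to 11.6 CPM in control libraries. Summed over Uty, Kdm5d, Ddx3y and Eif2s3y, the 4 Y-linked genes checked, there were 0 counts in each Gsdmd-/- and PIL library and 1854 to 3077 counts in the 3 control libraries, which goes against the label female for the control group. What the treatment did to the 37 genes or any other gene, in either comparison with control libraries, cannot be told apart from this difference. The control group is left out of the 6-library fit of Gsdmd-/- against PIL. PIL replicate 1 and control replicate 3 stand apart in the genes described here, and group results are given with and without them.

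Compared per length, on the deposited FPKM values, the 37 genes spanned a wide range of levels. The median FPKM over the 9 libraries was highest for Ccnd1 at 18.8 and for Pcna at 17.7. The order of these 2 was turned round in the PIL group (20.1 for Ccnd1 and 20.7 for Pcna), and whether they differ was not tested. Mcm6 followed at 5.36, Mcm7 at 4.98, Cdkn1a at 4.58 and Tyms at 3.25 FPKM. The 10 replication genes ran from 1.54 FPKM for Mcm3 up to Pcna. The 13 genes of mitotic entry and exit lay lower, between 0.107 FPKM for Bub1 and 1.82 FPKM for Ube2c, and the 10 chromosome and spindle genes between 0.0692 FPKM for Cenpf and 0.829 FPKM for Nusap1. The lowest genes rested on few reads: Bub1 had 8, 4 and 7 counts in Gsdmd-/- libraries, 55, 26 and 3 counts in PIL libraries and 4, 2 and 31 counts in control libraries. The fewest counts in a group, 16 over 3 libraries, were those of Ccne1 in Gsdmd-/- kidneys. Exons of 9 members overlap those of another coding gene in GENCODE M21, namely Ccnd1, Mcm7, Foxm1, Ccna2, Cdc20, Ube2c, Kif20a, Nusap1 and Prc1, and Pcna, Tyms, Ccnb1 and Ccnb2 have named pseudogenes. Whether the counting used strand is not given, so reads of these genes may be shared. Tnnc2, which overlaps Ube2c, had 0 counts in every library.

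Of the 37 genes, 30 have a RefSeq promoter window (GRCm38.p6) of 250 bases before to 50 bases after the annotated start, with 33 windows in all. The 3 motifs were searched on both strands, the CHR core (TTTGAA or TTTAAA), the CCAAT box (CCAAT) and the E2F core (TTCCCGCC, TTGGCGCC, TTTGGCGC, TTTCCCGC or TTGGCGGG), whose letters overlap in part with each other, so that 1 site can match more than once. A CHR core was in 63.6% of the members' windows and in 27.6% of all 32851 windows, and a CCAAT box in 78.8% and 37.4%. Both together were in 57.6% of the members' windows and in 10.7% of all windows. An E2F core was in 21.2% and 4.58%. By role, a CHR core was in 9 of 10 genes of mitotic entry and exit and in 7 of 8 chromosome and spindle genes. It was in 3 of 9 replication genes, near the share of all genes with a window (30.6%). A CCAAT box was in 9 of 10, 7 of 8 and 8 of 9 genes of these roles (41.1% of all genes), and so did not set them apart. An E2F core was in 5 of 9 replication genes (Mcm3, Mcm5, Mcm6, Mcm7 and Rrm1), against 5.25% of all genes with a window. It was in 2 of 10 genes of mitotic entry and exit (Ccnb1 and Cdk1), and in 0 of 8 chromosome and spindle genes. These matches are a description of the letters in the windows and no sites of binding.

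The windows of 4 genes are printed to set both kinds of promoter side by side: Mcm3 (chr1:20820263-20820562, minus strand) and Mcm6 (chr1:128359656-128359955, minus strand), 2 subunits of the replicative helicase, and Ube2c (chr2:164769679-164769978, plus strand) and Bub1b (chr2:118597961-118598260, plus strand), a ubiquitin-conjugating enzyme of the anaphase-promoting complex and a kinase-like protein of the spindle checkpoint. Of the members whose window holds a searched motif, these had the lowest p in PIL against control. Each runs 5′ to 3′ on the gene's strand, with matches to any of the motifs in capitals.
Mcm3: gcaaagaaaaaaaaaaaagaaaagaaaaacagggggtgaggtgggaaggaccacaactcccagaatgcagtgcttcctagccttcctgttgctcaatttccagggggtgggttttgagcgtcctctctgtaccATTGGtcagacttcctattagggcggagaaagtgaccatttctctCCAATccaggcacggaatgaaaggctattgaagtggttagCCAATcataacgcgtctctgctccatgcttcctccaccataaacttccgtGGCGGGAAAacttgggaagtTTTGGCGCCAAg
Mcm6: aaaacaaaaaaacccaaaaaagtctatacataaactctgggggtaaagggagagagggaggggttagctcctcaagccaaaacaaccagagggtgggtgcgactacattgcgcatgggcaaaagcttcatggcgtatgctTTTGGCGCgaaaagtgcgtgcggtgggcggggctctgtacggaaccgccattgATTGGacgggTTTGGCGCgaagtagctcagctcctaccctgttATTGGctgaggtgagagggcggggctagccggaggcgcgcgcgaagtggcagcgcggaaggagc
Ube2c: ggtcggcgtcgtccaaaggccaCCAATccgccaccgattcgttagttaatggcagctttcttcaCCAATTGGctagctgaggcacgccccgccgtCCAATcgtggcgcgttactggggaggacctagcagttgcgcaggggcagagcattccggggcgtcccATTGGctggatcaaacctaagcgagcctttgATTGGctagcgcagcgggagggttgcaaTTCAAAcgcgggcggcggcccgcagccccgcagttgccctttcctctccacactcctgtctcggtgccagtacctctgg
Bub1b: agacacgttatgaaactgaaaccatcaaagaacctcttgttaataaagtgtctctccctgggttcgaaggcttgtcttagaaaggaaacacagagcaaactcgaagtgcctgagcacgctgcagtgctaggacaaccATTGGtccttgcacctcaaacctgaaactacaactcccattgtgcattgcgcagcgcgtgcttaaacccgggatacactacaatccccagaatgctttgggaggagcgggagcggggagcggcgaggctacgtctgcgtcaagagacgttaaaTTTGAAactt
Mcm3 has 3 CCAAT boxes and 5 matches to the E2F core, some of which overlap, and the E2F matches all lie downstream of the annotated start. Mcm6 has 2 CCAAT boxes and 2 matches to the E2F core. Ube2c has 6 CCAAT boxes and 1 CHR core at base -29 from the start, and Bub1b has 1 CCAAT box at base -113 and 1 CHR core at base 40.

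**Figure D1:**
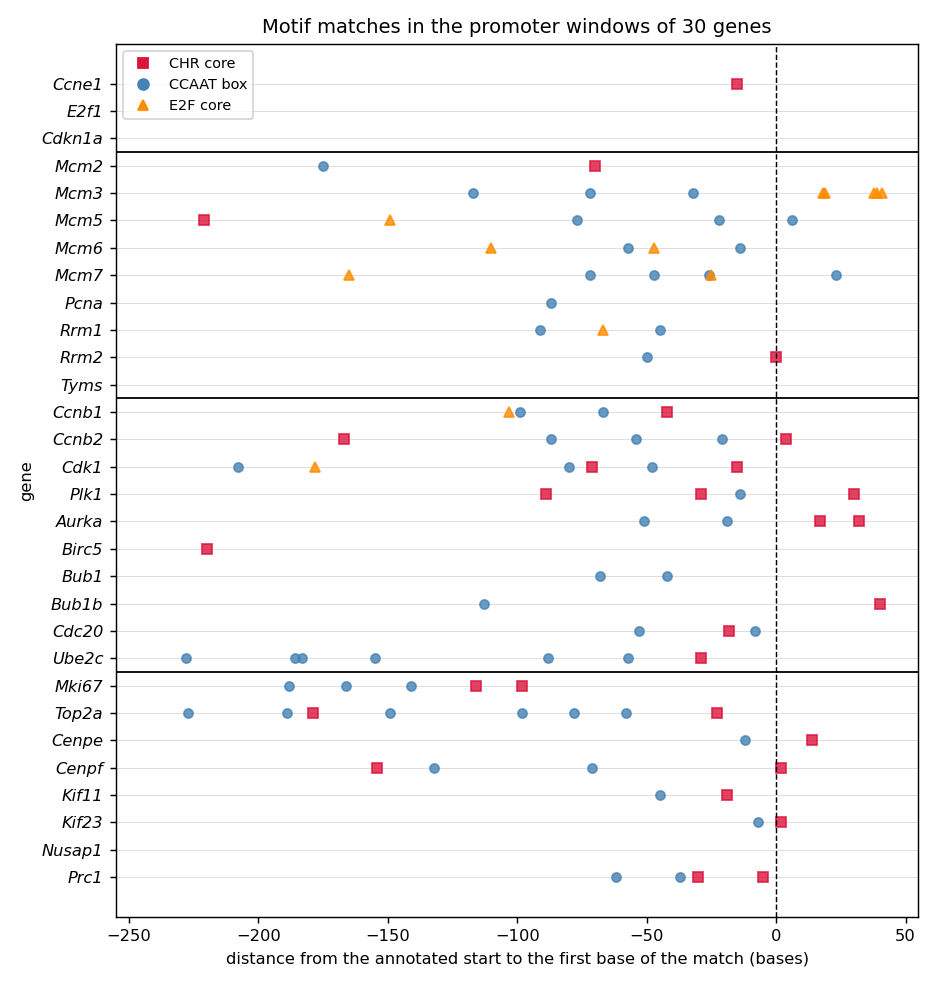
Matches to the 3 motifs in the promoter windows of 30 genes, by gene (genes with 2 windows show both), by the distance in bases from the annotated start to the first base of the match. CHR cores (squares) are in 9 of 10 genes of mitotic entry and exit and 7 of 8 chromosome and spindle genes, whereas E2F cores (triangles) are in 5 of 9 replication genes.

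The plot of every gene in every library shows the same pattern over most of the 37 genes. Within the PIL group, replicate 1 was highest in 35 of 37 genes (41.0% of all genes tested), and replicate 3 was lowest in 35 of 37 (41.7%). The exceptions were Ccnd1 and Mcm4, highest in PIL replicate 2, and Ccnd1 and Tyms, lowest in replicates 1 and 2 of PIL. Within the control group, replicate 3 was highest in 36 of 37 genes (38.8% of all genes tested), all but Cdkn1a. Over all 9 libraries, PIL replicate 1 was highest in 28 genes (28.9% of all genes tested), PIL replicate 2 in Ccnd1 and Mcm4, control replicate 2 in Cdkn1a, and control replicate 3 in 6 genes (17.0%), namely Rrm2, Cenpe, Cenpf, Kif11, Kif20a and Nusap1. No Gsdmd-/- library was the highest in any of the 37.

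**Figure D2:**
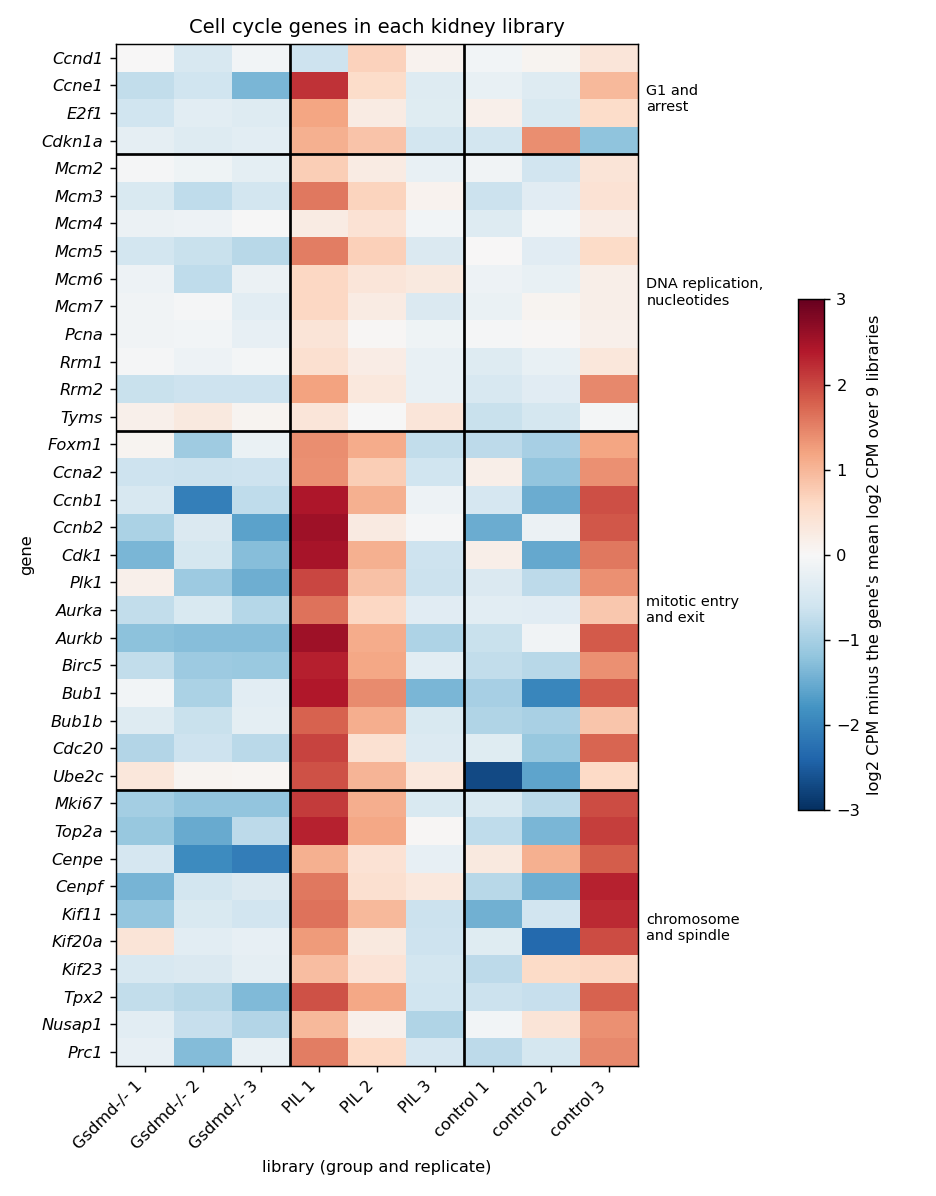
Level of each of the 37 genes (rows, by role) in each of the 9 libraries (columns), as log2 CPM minus the gene's mean log2 CPM over the 9 libraries. PIL replicate 1 is highest in 28 genes and control replicate 3 in 6, while the Gsdmd-/- libraries are the highest in 0.

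In size, PIL replicate 1 stood at a median of 3.71 times PIL replicate 3 and PIL replicate 2 at 1.86 times, while over all genes tested these ratios had medians of 1.01 and 1.01. Control replicate 3 stood at a median of 3.50 times the mean of the other control libraries. Against the mean of the Gsdmd-/- libraries, PIL replicate 1 had a median ratio of 4.39, control replicate 3 of 3.79 and PIL replicate 3 of 1.14. PIL replicates 1 and 2 were both above every Gsdmd-/- library in 34 of 37 genes (31.4% of all genes tested), and PIL replicate 3 lay within or below the range of the Gsdmd-/- libraries in 18 (48.6%), against 72.3% of all genes tested. The median SD of log2 CPM over the 37 genes was 0.18 in Gsdmd-/- libraries, 0.95 in PIL libraries and 1.06 in control libraries, while over all genes tested it was 0.13 in Gsdmd-/- libraries, 0.28 in PIL libraries and 0.22 in control libraries. Set against counting error alone, the median chi-square per degree of freedom of the 37 genes was 0.817 in Gsdmd-/- libraries, 26.0 in PIL libraries and 23.9 in control libraries. Over all genes tested it was 2.33 in Gsdmd-/- libraries, 10.6 in PIL libraries and 6.10 in control libraries. The members had fewer counts, a median of 88 over the 3 Gsdmd-/- libraries against 978 for all genes tested, and a low count brings this measure closer to 1.

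The ratio between the libraries depended on the role of the genes. The 13 genes of mitotic entry and exit summed to 20.2, 17.4 and 17.3 CPM in Gsdmd-/- libraries, 108, 49.8 and 21.2 CPM in PIL libraries and 17.7, 13.9 and 69.4 CPM in control libraries. The 10 chromosome and spindle genes summed to 21.1, 18.0 and 19.8 CPM in Gsdmd-/- libraries, 110, 58.5 and 25.5 CPM in PIL libraries and 23.4, 29.2 and 114 CPM in control libraries. In both sums the highest PIL and the highest control library lay far above the lowest library of their own group, and control replicate 3 stood above PIL replicate 2. The 10 replication genes summed to 171, 162 and 160 CPM in Gsdmd-/- libraries, 295, 221 and 179 CPM in PIL libraries and 159, 165 and 228 CPM in control libraries. The 4 G1 and arrest genes, of which Ccnd1 made up most, summed to 109, 82.9 and 104 CPM in Gsdmd-/- libraries, 112, 186 and 112 CPM in PIL libraries and 103, 151 and 130 CPM in control libraries. PIL replicate 1 was not the highest in this last group.

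**Figure D3:**
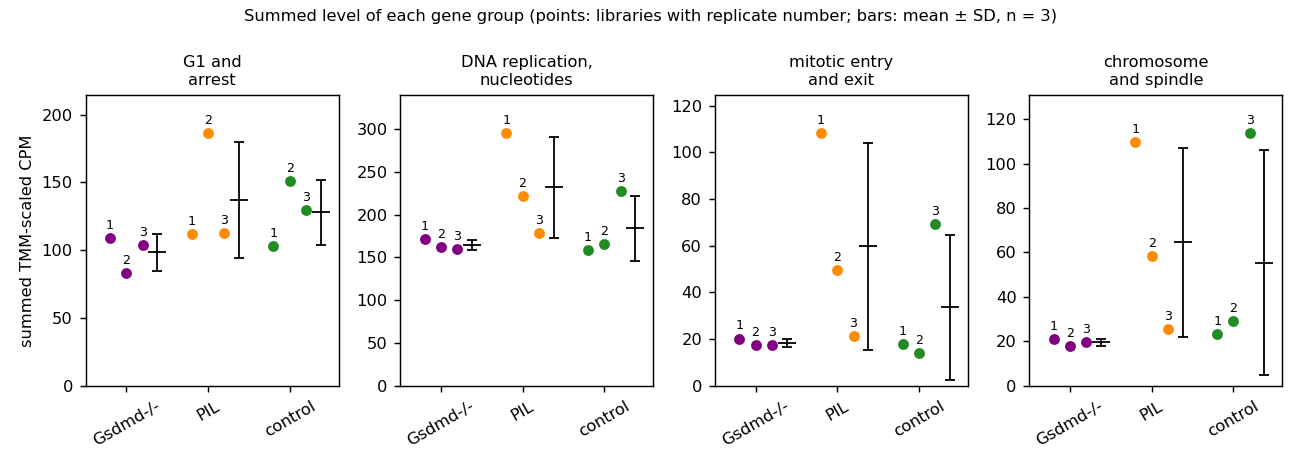
Summed TMM-scaled CPM of the genes of each role (4 panels, each from 0) in Gsdmd-/-, PIL and control libraries, with the replicate number at each point and the mean ± SD (n = 3) beside it. For mitotic entry and exit the Gsdmd-/- libraries lie between 17.3 and 20.2 CPM, while PIL replicate 1 is at 108 CPM and control replicate 3 at 69.4 CPM.

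The first comparison, Gsdmd-/- against PIL kidneys, bears on the loss of gasdermin D under pristane, and by the labels' treatment field on treatment too. The fitted log2 fold change was negative for 37 of 37 genes and for 7049 of 14069 genes tested. Its median was -1.82 over the 13 genes of mitotic entry and exit, -1.64 over the 10 chromosome and spindle genes, -0.93 over the 4 G1 and arrest genes and -0.41 over the 10 replication genes, against -0.00066 over all genes tested. By edgeR's quasi-likelihood test with Benjamini-Hochberg adjustment, 0 of 37 were called lower and 0 higher, as were 0.0% and 0.0% of all genes tested. At an unadjusted p under 0.05, 17 of 37 genes were lower (13.0% of all genes tested) and 0 higher (7.93%). The Gsdmd-/- and PIL libraries did not overlap in 17 genes, all lower in Gsdmd-/- (14.1% of all genes tested), and in 0 the other way (13.8%).

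Other tools called some of these genes. DESeq2 called 8 of 37 lower in Gsdmd-/- kidneys (4.99% of all genes tested), which were Mcm3, Mcm5, Mcm6, Cdk1, Aurkb, Birc5, Top2a and Cenpe. The limma-voom fit with sample quality weights, in which libraries far from their group weigh less, called 32 lower (22.8% of all genes tested). With PIL replicate 3 left out, edgeR called 14 of 37 lower (12.2% of all genes tested), and with any other library left out it called 0. The median over the 37 genes was -1.77 without PIL replicate 3 and -0.87 without PIL replicate 1. In the fit of only the 6 Gsdmd-/- and PIL libraries, 35 of the 37 were tested and edgeR called 0 of them. Their median was -1.34 and their lowest edgeR adjusted p 0.163, and 1 gene was called among all genes.

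The 4 genes with the lowest p in this comparison were 3 subunits of the MCM helicase, which unwinds DNA at replication forks, and Cenpe, a kinesin that carries chromosomes to the middle of the spindle. Mcm6 (mm10 chr1:128331590-128359664, minus strand) had 25.1, 16.4 and 24.6 CPM in Gsdmd-/- libraries, against 43.3, 36.1 and 34.1 CPM in PIL libraries. The groups did not overlap, and all 3 PIL libraries were high. Its log2 fold change was -0.78 (SE 0.19, edgeR adjusted p = 0.130). Mcm3 (chr1:20802968-20820312, minus strand) had 5.55, 4.47 and 5.15 CPM in Gsdmd-/- libraries, against 22.6, 12.1 and 8.13 CPM in PIL libraries. Here PIL replicate 1 stood well above the other PIL libraries, and the groups again did not overlap, with a log2 fold change of -1.50 (SE 0.39, edgeR adjusted p = 0.134). Mcm5 (chr8:75109569-75128439, plus strand) had 5.97, 5.53 and 4.95 CPM in Gsdmd-/- libraries, against 25.3, 14.4 and 6.55 CPM in PIL libraries. PIL replicate 3 was close to the Gsdmd-/- libraries, and the log2 fold change was -1.50 (SE 0.43, edgeR adjusted p = 0.150). Cenpe (chr3:135212537-135273611, plus strand) had 1.58, 0.61 and 0.54 CPM in Gsdmd-/- libraries, against 4.71, 3.04 and 1.88 CPM in PIL libraries. All Gsdmd-/- libraries were low, and the log2 fold change was -1.82 (SE 0.57, edgeR adjusted p = 0.161). The promoter windows of Mcm3, Mcm5 and Mcm6 hold matches to the E2F core.

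The proliferation marker Mki67 (chr7:135689784-135716361, minus strand), which codes for the Ki-67 protein of dividing cells, had 3.98, 3.56 and 3.55 CPM in Gsdmd-/- libraries, 34.6, 17.2 and 5.87 CPM in PIL libraries and 5.88, 4.63 and 31.6 CPM in control libraries. PIL replicate 1 and control replicate 3 were close, and PIL replicate 3 was level with control replicate 1. Mki67 had a log2 fold change in Gsdmd-/- against PIL kidneys of -2.38 (SE 0.81, edgeR adjusted p = 0.179), and of -1.65 without PIL replicate 1. Top2a (chr11:98992943-99024189, minus strand), the topoisomerase that untangles sister chromatids, had 2.26, 1.74 and 2.88 CPM in Gsdmd-/- libraries, 24.5, 11.2 and 5.12 CPM in PIL libraries and 2.94, 1.94 and 21.0 CPM in control libraries. The PIL and control libraries stood in the same order within their groups as for Mki67, while the Gsdmd-/- libraries overlapped with control replicates 1 and 2, which they did not for Mki67. Its log2 fold change in Gsdmd-/- against PIL kidneys was -2.56 (SE 0.90, edgeR adjusted p = 0.186), and -1.83 without PIL replicate 1. Pcna (chr2:132249162-132253314, minus strand), the sliding clamp of DNA polymerases, had 41.9, 42.5 and 38.0 CPM in Gsdmd-/- libraries, 59.4, 46.4 and 41.0 CPM in PIL libraries and 43.7, 45.9 and 50.3 CPM in control libraries. The same 2 libraries were highest, but by far less than for Mki67. For Pcna the log2 fold change in Gsdmd-/- against PIL kidneys was -0.26 (SE 0.14, edgeR adjusted p = 0.296).

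Ccnd1 (chr7:144929931-144939925, minus strand), cyclin D1, which drives G1 with CDK4 and CDK6, had 88.9, 63.8 and 84.4 CPM in Gsdmd-/- libraries, 57.8, 144 and 95.0 CPM in PIL libraries and 84.5, 94.7 and 114 CPM in control libraries. Unlike the mitotic genes, it was lowest of all 9 libraries in PIL replicate 1. Its log2 fold change in Gsdmd-/- against PIL kidneys was -0.33 (SE 0.29, edgeR adjusted p = 0.489), which became 0.041 without PIL replicate 2. Cdkn1a (chr17:29090976-29100727, plus strand), the p21 inhibitor of cyclin-dependent kinases and a target of p53, had 16.9, 15.6 and 16.3 CPM in Gsdmd-/- libraries, 42.4, 36.5 and 13.8 CPM in PIL libraries and 13.8, 53.2 and 8.81 CPM in control libraries. It was lowest in control replicate 3, where the mitotic genes were high, and highest in control replicate 2, where they were low. For Cdkn1a the log2 fold change in Gsdmd-/- against PIL kidneys was -0.93 (SE 0.62, edgeR adjusted p = 0.369).

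Among the other members, Aurkb, Cdk1 and Birc5 were among those with large fitted differences between Gsdmd-/- and PIL kidneys. Aurkb, the Aurora kinase of the chromosomal passenger complex, had 0.55, 0.53 and 0.54 CPM in Gsdmd-/- libraries, against 7.46, 2.80 and 0.68 CPM in PIL libraries. Cdk1, the kinase that starts mitosis, had 0.75, 1.36 and 0.80 CPM in Gsdmd-/- libraries, against 10.9, 4.12 and 1.28 CPM in PIL libraries. Birc5, or survivin, a partner of Aurora B, had 0.96, 0.76 and 0.74 CPM in Gsdmd-/- libraries, against 8.13, 3.58 and 1.28 CPM in PIL libraries. In each of the 3, PIL replicate 3 was near the Gsdmd-/- level and PIL replicate 1 far above it, and these 3 were chosen after their values were seen. The log2 fold changes of the 37 genes ran from -2.75 for Aurkb to -0.070 for Tyms, and the edgeR adjusted p from 0.130 to 0.826.

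**Figure D4:**
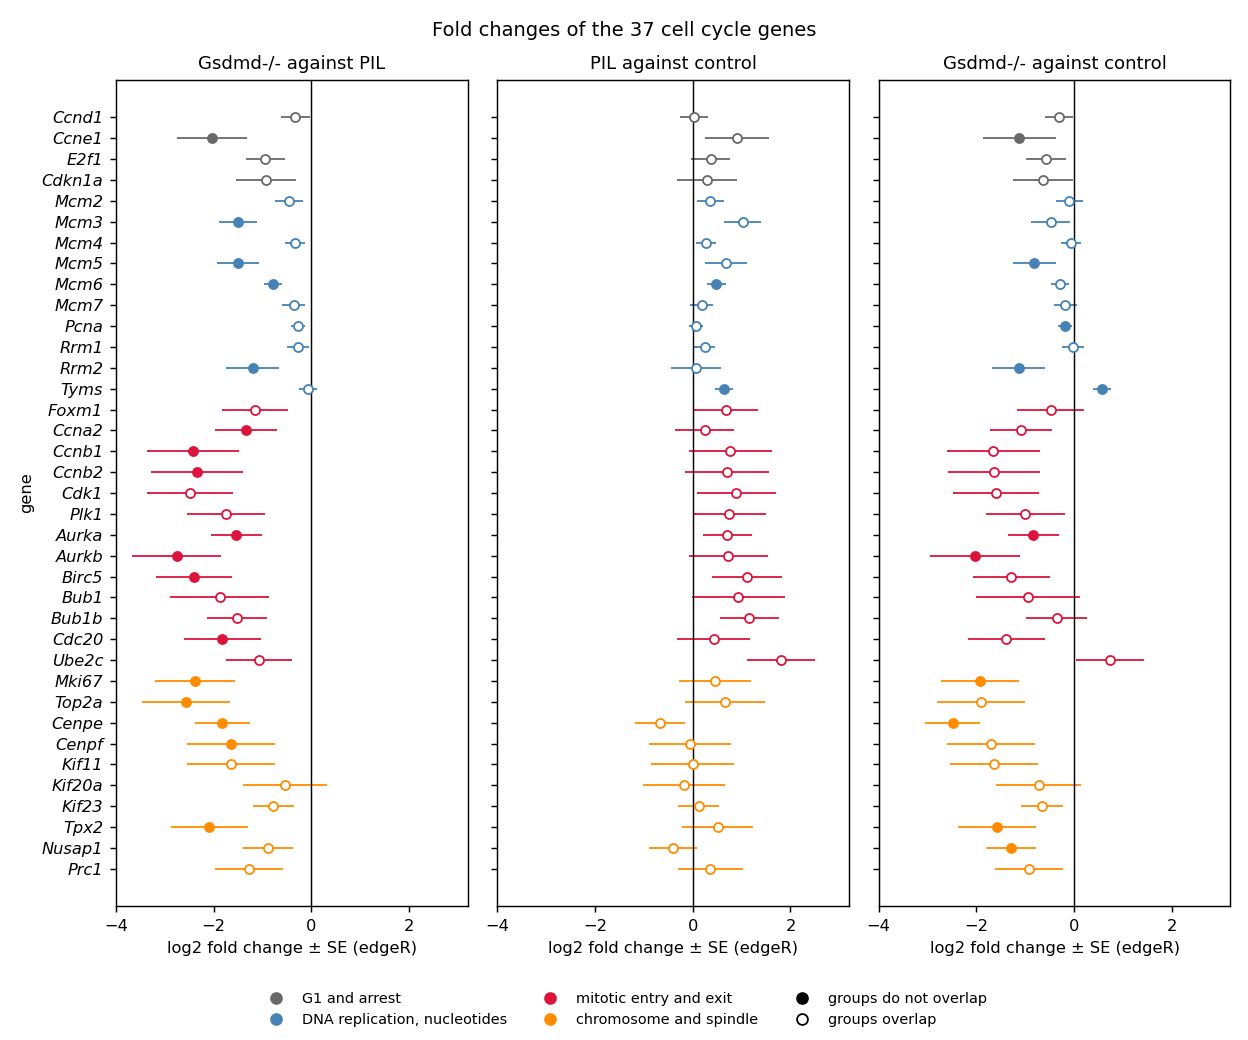
Log2 fold change ± SE of each of the 37 genes (rows, coloured by role) from edgeR for Gsdmd-/- against PIL, PIL against control and Gsdmd-/- against control. Filled points mark genes whose groups do not overlap. All 37 lie below 0 in Gsdmd-/- against PIL, 32 above 0 in PIL against control and 35 below 0 in Gsdmd-/- against control, and 0 of them passed an adjusted p of 0.05.

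The second comparison, PIL against control kidneys, asks what pristane did in wild-type mice. It shares the PIL libraries with the first, so the signs of the 2 comparisons are not independent. The fitted log2 fold change was positive for 32 of 37 genes and for 7195 of 14069 genes tested, and negative for Cenpe, Cenpf, Kif11, Kif20a and Nusap1, all of the chromosome and spindle machinery. The median was 0.75 over the genes of mitotic entry and exit, 0.33 over the G1 and arrest genes, 0.32 over the replication genes and 0.059 over the chromosome and spindle genes, against 0.012 over all genes tested. By edgeR's quasi-likelihood test with Benjamini-Hochberg adjustment, 0 of 37 were called higher and 0 lower, while 4.48% and 3.14% of all genes tested were. At an unadjusted p under 0.05, 4 of 37 were higher (15.4% of all genes tested) and 0 lower (12.2%). The groups did not overlap in 2 genes, Tyms and Mcm6, both higher in PIL kidneys (13.4% of all genes tested), and in 0 genes the other way (11.7%). These shares of the 37 genes are below those of all genes tested.

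DESeq2 called Tyms alone higher in PIL kidneys, 1 of 37 genes (9.3% of all genes tested), and limma-voom with sample quality weights called 21 higher (22.8%). Without control replicate 3, edgeR called 2 of 37 higher, Tyms and Ube2c (2.0% of all genes tested), and without PIL replicate 3 it called Mcm3 and Mcm5, also 2 of 37 (13.3%). The median log2 fold change of the 37 genes was 1.42 without control replicate 3, and -0.089 without PIL replicate 1.

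Tyms (chr5:30058202-30073617, minus strand), thymidylate synthase, which makes the thymidine nucleotide for DNA, had 24.1, 18.5 and 24.0 CPM in PIL libraries, against 11.8, 12.8 and 17.9 CPM in control libraries. The groups were apart by a small margin, and Gsdmd-/- libraries, at 20.8, 22.8 and 19.9 CPM, lay with the PIL libraries. Its log2 fold change in PIL against control was 0.65 (SE 0.18, edgeR adjusted p = 0.0616). Tyms was called by edgeR without control replicate 3 (log2 fold change 0.85, adjusted p = 0.0327) and with upper-quartile scaling (adjusted p = 0.0465). Ube2c (chr2:164769898-164778822, plus strand), which marks mitotic proteins for degradation, had 14.3, 7.76 and 4.74 CPM in PIL libraries, against 0.59, 1.27 and 5.76 CPM in control libraries. Control replicates 1 and 2, with 8 and 17 counts, were lower than every other library, and Gsdmd-/- libraries were at 4.80, 4.01 and 3.95 CPM. The log2 fold change of Ube2c was 1.80 (SE 0.69, edgeR adjusted p = 0.134), and without control replicate 3 it was 3.26 (adjusted p = 0.0205). Mcm3 had 22.6, 12.1 and 8.13 CPM in PIL libraries, against 4.85, 6.05 and 10.2 CPM in control libraries, with a log2 fold change of 1.02 (SE 0.39, edgeR adjusted p = 0.129). Control replicate 3 lay above PIL replicate 3, and without PIL replicate 3 the log2 fold change of Mcm3 was 1.29 (adjusted p = 0.0264). Mcm6 had 43.3, 36.1 and 34.1 CPM in PIL libraries, against 25.3, 24.1 and 31.6 CPM in control libraries, and its log2 fold change was 0.49 (SE 0.19, edgeR adjusted p = 0.135).

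The genes Mki67 and Top2a, which mark dividing cells, and Pcna were not called in PIL against control kidneys. The log2 fold change was 0.46 for Mki67 (SE 0.75, edgeR adjusted p = 0.716), 0.65 for Top2a (SE 0.82, edgeR adjusted p = 0.628) and 0.071 for Pcna (SE 0.14, edgeR adjusted p = 0.770). All 3 were negative without PIL replicate 1, at -0.28 for Mki67, -0.089 for Top2a and -0.096 for Pcna. The G1 cyclin Ccnd1 was at 0.019 (SE 0.29, edgeR adjusted p = 0.972) and Cdkn1a at 0.30 (SE 0.61, edgeR adjusted p = 0.777). Without control replicate 3, Mki67 was at 1.87 and Top2a at 2.47. Thus the direction for Mki67 and Top2a depended on PIL replicate 1, and the size on control replicate 3.

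The third comparison, Gsdmd-/- against control kidneys, uses the same libraries as the other 2. The log2 fold change was negative for 35 of 37 genes and for 7276 of 14069 genes tested, with Ube2c and Tyms the exceptions. Its median was -1.61 over the chromosome and spindle genes, -1.09 over the genes of mitotic entry and exit, -0.60 over the G1 and arrest genes and -0.19 over the replication genes, against -0.011 over all genes tested. Over the 37 genes it was -0.92, and -0.14 without control replicate 3. By edgeR's quasi-likelihood test with Benjamini-Hochberg adjustment, 0 of 37 were called higher and 0 lower, while 1.55% and 1.46% of all genes tested were. At an unadjusted p under 0.05, 1 gene was higher (7.68% of all genes tested) and 3 were lower (6.93%). The groups did not overlap in 1 gene that was higher, Tyms (13.3% of all genes tested), and in 10 that were lower (11.5%), namely Ccne1, Mcm5, Pcna, Rrm2, Aurka, Aurkb, Mki67, Cenpe, Tpx2 and Nusap1. DESeq2 called Cenpe alone lower, 1 of 37 (3.18% of all genes tested), and limma-voom with sample quality weights called Ube2c and Tyms higher, 2 of 37 (8.19%), and Cenpe lower, 1 of 37 (7.46%).

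Cenpe was the member nearest to a call in Gsdmd-/- against control kidneys, with 1.58, 0.61 and 0.54 CPM in Gsdmd-/- libraries, against 2.72, 4.70 and 7.93 CPM in control libraries. The Gsdmd-/- values rested on 23, 8 and 8 counts, and control replicate 3 was again the highest. Its log2 fold change was -2.48 (SE 0.57, edgeR adjusted p = 0.0531). The edgeR adjusted p was 0.0316 without PIL replicate 1, 0.0356 without PIL replicate 3 and 0.0364 in the 6 libraries of these 2 groups, and it was 0.224 without Gsdmd-/- replicate 2. Tyms had 20.8, 22.8 and 19.9 CPM in Gsdmd-/- libraries, against 11.8, 12.8 and 17.9 CPM in control libraries, with a log2 fold change of 0.58 (SE 0.18, edgeR adjusted p = 0.159), and without control replicate 3 its adjusted p was 0.0489. Nusap1 (chr2:119618298-119651244, plus strand), which bundles spindle microtubules, had 2.95, 2.27 and 2.01 CPM in Gsdmd-/- libraries, against 3.45, 4.78 and 9.48 CPM in control libraries. The groups were apart by a narrow margin at control replicate 1, and the log2 fold change was -1.29 (SE 0.51, edgeR adjusted p = 0.267). For Mki67 it was -1.93 (SE 0.81, edgeR adjusted p = 0.304) and for Top2a -1.91 (SE 0.90, edgeR adjusted p = 0.374). Without control replicate 3 the log2 fold change was -0.51 for Mki67 and -0.086 for Top2a. Pcna was at -0.19 (SE 0.14, edgeR adjusted p = 0.628), Ccnd1 at -0.31 (SE 0.29, edgeR adjusted p = 0.723) and Cdkn1a at -0.63 (SE 0.62, edgeR adjusted p = 0.736).

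Markers of macrophages and of injured tubules were ordered like the mitotic genes in the PIL libraries, but not in the control libraries. The 15 markers of monocytes and macrophages summed to 312, 245 and 368 CPM in Gsdmd-/- libraries, 1923, 1292 and 429 CPM in PIL libraries and 339, 499 and 162 CPM in control libraries. Like the mitotic genes they were highest in PIL replicate 1 and lowest in PIL replicate 3, whereas control replicate 3, the highest control library in mitotic genes, was the lowest in these markers. The 12 markers of injured tubules, Havcr1 (KIM-1) and Lcn2 (NGAL) among them, summed to 3738, 3783 and 3474 CPM in Gsdmd-/- libraries, 18067, 6004 and 4048 CPM in PIL libraries and 2488, 3201 and 2201 CPM in control libraries. Gene by gene, 6 of the 12 were positive and 6 negative in Gsdmd-/- against control kidneys (median log2 fold change -0.031). Havcr1 (-1.56, SE 1.82) and Lcn2 (-1.49, SE 1.46) were among the negative ones. Summed markers of proximal tubule ran the other way from the injured-tubule sums, with 23375 to 25921 CPM in Gsdmd-/- libraries, 8088, 17773 and 23898 CPM in PIL libraries and 34338 to 36898 CPM in control libraries. The most abundant genes weigh most in such a sum. Gene by gene, 6 of the 10 proximal tubule markers were positive and 4 negative in Gsdmd-/- against control kidneys (median log2 fold change 0.069). Markers of B and plasma cells summed to 214 to 296 CPM in Gsdmd-/- libraries, 972, 994 and 308 CPM in PIL libraries and 154 to 279 CPM in control libraries, and those of T and NK cells to 8.26 to 15.2 CPM in Gsdmd-/- libraries, 80.6, 29.5 and 26.3 CPM in PIL libraries and 10.6 to 33.4 CPM in control libraries. The fibroblast and mesangial markers summed to 273 to 361 CPM in Gsdmd-/- libraries and 1930, 793 and 492 CPM in PIL libraries. In control libraries they summed to 582, 431 and 637 CPM. Like the mitotic genes, these sums were highest in PIL replicate 1 and in control replicate 3 within these groups. Single genes of the list differed from the sums. Dcn was highest in PIL replicate 2 and control replicate 2, and Postn in PIL replicate 2 and control replicate 3. Pdgfrb was highest in PIL replicate 1 and control replicate 1. Control replicate 3 was highest in markers of perirenal fat, at 257 CPM, against 71.1 and 108 CPM in the other control libraries. In PIL libraries the markers of neutrophils summed to 35.7, 86.1 and 14.1 CPM. Those of erythroid precursors summed to 246, 102 and 480 CPM there, and those of endothelium to 598, 775 and 681 CPM. PIL replicate 1 was not the highest PIL library in any of these last lists. None of the markers in these lists was at 0 in all 9 libraries. The part of any of these cell types in the levels of the 37 genes was not tested.

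Most other genes of mitosis and DNA replication, listed apart from the 37, had a fitted change of the same sign as most of the 37. Of 49 other mitosis genes tested, 43 had a negative log2 fold change in Gsdmd-/- against PIL kidneys (median -1.59), 36 a positive one in PIL against control kidneys (median 0.46) and 45 a negative one in Gsdmd-/- against control kidneys (median -1.21), and edgeR called 0 of 49 in each comparison. In Gsdmd-/- against PIL kidneys 21 of these 49 were lower at an unadjusted p under 0.05 (13.0% of all genes tested). DESeq2 called 3 lower (4.99% of all genes tested) and limma-voom 33 lower (22.8%). In PIL against control kidneys 1 was higher at an unadjusted p under 0.05 (15.4% of all genes tested). DESeq2 called 0 (9.3% of all genes tested were called higher), and limma-voom called 13 higher (22.8%) and 1 lower. Over all 14069 genes tested, limma-voom called 6223 in this comparison in both directions together. In Gsdmd-/- against control kidneys 1 was higher (7.68% of all genes tested) and 4 were lower (6.93%) at an unadjusted p under 0.05. DESeq2 called 1 lower (3.18%), and limma-voom called 1 higher (8.19%) and 1 lower (7.46%). Cks1b, a subunit that binds cyclin-dependent kinases, had the lowest p of them in Gsdmd-/- against PIL kidneys, with 1.51, 1.74 and 1.67 CPM in Gsdmd-/- libraries, against 7.23, 4.24 and 2.48 CPM in PIL libraries (log2 fold change -1.51, SE 0.38, edgeR adjusted p = 0.130). Of 32 other replication genes, 27 were negative in Gsdmd-/- against PIL kidneys (median -0.46), and Mcm10, a factor that helps to start replication, was called lower in Gsdmd-/- than in control kidneys. Mcm10 had 1.85, 2.27 and 2.74 CPM in Gsdmd-/- libraries, against 8.16, 4.33 and 7.38 CPM in control libraries (log2 fold change -1.53, SE 0.32, edgeR adjusted p = 0.0390), and the PIL libraries had 3.42, 4.00 and 2.41 CPM. Unlike 36 of the 37 genes, Mcm10 was not highest in control replicate 3 within its group.

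Of 8 inhibitors of cyclin-dependent kinases and pocket proteins, which hold cells back from dividing, edgeR called 1 in PIL and in Gsdmd-/- against control kidneys and 0 in Gsdmd-/- against PIL kidneys (1 higher at an unadjusted p under 0.05, 0 by DESeq2, and 2 higher and 2 lower by limma-voom). Cdkn1c, the p57 inhibitor of cyclin-dependent kinases, which marks podocytes among other cells, was higher in both groups than in control. It had 23.6, 30.2 and 25.4 CPM in Gsdmd-/- libraries and 27.5, 35.1 and 21.7 CPM in PIL libraries, against 10.2, 10.1 and 8.60 CPM in control libraries. The groups did not overlap with control, with a log2 fold change of 1.55 in PIL against control (SE 0.19, edgeR adjusted p = 0.00376) and of 1.45 in Gsdmd-/- against control (SE 0.19, edgeR adjusted p = 0.00514). The 6 podocyte markers summed to 619 to 679 CPM in Gsdmd-/- libraries, 489 to 669 CPM in PIL libraries and 317 to 485 CPM in control libraries, and their part in the value of Cdkn1c was not tested. Ccng1, cyclin G1, a target of p53, was lower in PIL than in control kidneys. It had 142, 151 and 214 CPM in PIL libraries, against 319, 255 and 253 CPM in control libraries (log2 fold change -0.71, SE 0.17, edgeR adjusted p = 0.0398). Of 17 p53 targets tested it was the only call, by edgeR, in the 3 comparisons. DESeq2 called 0 of the 17 in Gsdmd-/- against PIL kidneys, 1 higher and 1 lower in PIL against control kidneys and 1 lower in Gsdmd-/- against control kidneys. The limma-voom fit called 2 higher and 8 lower in Gsdmd-/- against PIL kidneys, 7 higher and 3 lower in PIL against control kidneys and 2 lower in Gsdmd-/- against control kidneys. None of 14 other G1 cyclins, kinases and E2F genes and none of 10 genes of the DNA damage checkpoint was called by edgeR in any comparison. At an unadjusted p under 0.05, 4 of the 14 were lower in Gsdmd-/- against PIL kidneys (1 by DESeq2, and 7 lower and 2 higher by limma-voom), 1 was higher and 1 lower in PIL against control kidneys (0 by DESeq2, and 6 higher and 1 lower by limma-voom), and 1 was higher and 2 lower in Gsdmd-/- against control kidneys (0 by DESeq2, 2 lower by limma-voom). Of the 10, 1 was lower in Gsdmd-/- against PIL kidneys (0 by DESeq2, and 1 higher and 4 lower by limma-voom), 0 passed in PIL against control kidneys (0 by DESeq2, and 1 higher and 2 lower by limma-voom), and 1 was lower in Gsdmd-/- against control kidneys (0 by DESeq2 and by limma-voom). Beside these lists, 13.0% of all genes tested were lower and 7.93% higher at an unadjusted p under 0.05 in Gsdmd-/- against PIL kidneys. DESeq2 called 4.99% lower and limma-voom 22.8%. In PIL against control kidneys 15.4% were higher (9.3% by DESeq2, 22.8% by limma-voom) and 12.2% lower. In Gsdmd-/- against control kidneys 7.68% were higher (8.19% by limma-voom) and 6.93% lower (3.18% by DESeq2, 7.46% by limma-voom). In both directions together, limma-voom called 6443 of the 14069 genes tested in Gsdmd-/- against PIL kidneys. It called 6223 in PIL and 2201 in Gsdmd-/- against control kidneys. The DESeq2 totals were 878, 2285 and 909 in the same order. Among these lists, Ccnd2, cyclin D2, had the lowest p in Gsdmd-/- against PIL kidneys. Ccnd2 had 9.87, 9.09 and 12.9 CPM in Gsdmd-/- libraries, against 20.5, 21.1 and 16.6 CPM in PIL libraries. Its log2 fold change was -0.87 (SE 0.18, edgeR adjusted p = 0.127).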

How the data were processed

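Kidney RNA was sequenced in 9 libraries, 3 each of Gsdmd-/-, PIL and control mice, as grouped by the sample titles. Per the paper's methods, TRIzol was used for RNA isolation and a Novaseq6000 for paired-end reads, which the authors mapped on mm10 (Hisat2) and assigned to genes (HTSeq). The processing notes also name TopHat2, and versions are not given in the sources used here. The read counts deposited by the authors are raw and not normalized. The FPKM values deposited by the authors are scaled to gene length and library size, and were used only to compare levels between genes.

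Genes were filtered with filterByExpr at its defaults, scaled by TMM and compared in 1 fit of 3 groups (6 residual degrees of freedom) by the quasi-likelihood test of edgeR (robust setting) and Benjamini-Hochberg adjustment over the 14069 genes tested, and called at an adjusted p under 0.05. Displayed CPM values are TMM-scaled without a prior count, and log2 CPM for SDs and for ratios between libraries used a prior count of 2. The tools were edgeR 4.0.16, DESeq2 1.42.0 and limma 3.58.1 in R 4.3.3. The fits were tested on simulated data. Tried in their place were DESeq2, voom in limma with sample quality weights, scaling by RLE or upper quartile, no filter or a minimum of 10 counts per library, a block for the replicate number, fits of only the 6 libraries compared, and fits without each library in turn. Library totals of 13311063 to 16299328 counts limit the precision of genes under a few CPM, and chi-square values cover counting error only. Gene coordinates are those of the files, which equal GENCODE M21 (GRCm38) for all 37 genes. Promoters are from RefSeq (GRCm38.p6).

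Named were the 4 lowest-p members of each comparison without a call, always Mki67, Top2a, Pcna, Ccnd1 and Cdkn1a, and from other lists up to 3 called genes or the gene with the lowest p, of which some are given. Groups of 3 libraries were not put to Dixon's test of a sample far from the others. No comparison is found in 2 tissues, sexes or times, and all 18 value columns were used. The members and lists were chosen with earlier results of these data known.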

Additional observations from a re-analysis of the deposited data

How the results depend on the processing

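The count of members called higher in PIL against control kidneys, 0 by edgeR, was 1 with upper-quartile scaling, 1 by DESeq2 and 21 by limma-voom, and 0 to 2 with each library left out. The count called lower in Gsdmd-/- against PIL kidneys, 0 by edgeR, was 8 by DESeq2 and 32 by limma-voom, and 0 to 14 with each library left out. In Gsdmd-/- against control kidneys limma-voom called 2 higher, and 1 was called lower with no filter, by DESeq2, by limma-voom and in the 6 libraries, and 0 to 1 in each direction with each library left out. Calls among all genes were 1072 in PIL against control kidneys (2285 by DESeq2, 6223 by limma-voom, 130 in 6 libraries, 226 to 3684 with each library left out), 0 in Gsdmd-/- against PIL kidneys (878 by DESeq2, 6443 by limma-voom, 1 in 6 libraries, 0 to 3204 with each library left out) and 423 in Gsdmd-/- against control kidneys (909 by DESeq2, 2201 by limma-voom, 766 in 6 libraries, 105 to 705 with each library left out). The cause was not tested.

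The median log2 fold change of the members kept its sign under RLE and upper-quartile scaling in each comparison, and with each library left out it ran from -0.089 to 1.42 in PIL against control, from -1.77 to -0.87 in Gsdmd-/- against PIL and from -1.24 to -0.14 in Gsdmd-/- against control kidneys. Among the named members, the sign turned for Ccnd1 in PIL against control kidneys (-0.016 with the replicate block, -0.36 to 0.29 with each library left out) and in Gsdmd-/- against PIL kidneys (-0.60 to 0.041), for Cdkn1a in PIL against control (-0.12 to 1.45) and in Gsdmd-/- against control kidneys (0.030 by limma-voom, -1.04 to 0.53), and in PIL against control kidneys for Mki67 (-0.28 to 1.87), Top2a (-0.089 to 2.47) and Pcna (-0.096 to 0.18).

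Deviations from the group mean had r of -0.14 to 0.29 between libraries of the same number (9 pairs, of which 2 were over 0.1). With groups this small, these values cannot decide whether the numbers pair the libraries. With replicate number as a block, 0 members were called in each comparison, and over all genes 962 in PIL against control, 3 in Gsdmd-/- against PIL and 347 in Gsdmd-/- against control kidneys. Leaving out a library leaves 2 in its group, whose spread is estimated with the other groups. Depth limits genes such as Bub1, Ccne1 and Ccnb1, which had under 30 counts over the 3 Gsdmd-/- libraries.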
